A study of Mus musculus with 27 samples.

Results

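The 9 genes described here encode receptor tyrosine kinases and were followed in bone marrow-derived macrophages after LPS or IL-4. They are Csf1r, Mertk, Axl, Flt1, Met, Insr, Igf1r, Pdgfrb and Egfr, taken by their symbols from a table of 45070 genes. The rule used the symbols and no measured value, but earlier results of these data were known when the members were chosen. All 9 were in the table and all 9 passed the filter on low values that left 13901 genes for testing. The macrophages were grown from wild-type male C57/BL6 mice 6 to 8 weeks old, and every culture received DMSO for 1 h, the untreated ones included. They were then left untreated or given LPS at 10 ng/ml or IL-4 at 10 ng/ml for 0.5 h, 1 h, 2 h or 4 h, with 3 replicates in each of the 9 groups and 27 libraries in all. The RNA was the fraction still bound to chromatin, which is rich in transcripts being made, and each value is a normalised read count rounded to a whole number. The labels do not say whether the replicates are separate cultures, so the p-values measure only the spread between these samples, which may be technical.

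Receptor tyrosine kinases are single-pass membrane proteins, most of which pair up when a growth factor binds outside the cell. Paired receptors phosphorylate each other on tyrosines inside the cell, and so recruit adaptors that switch on the Ras-MAPK and PI3K pathways. In macrophages CSF1R carries the CSF1 and IL-34 signal for survival and differentiation. MERTK and AXL bind GAS6 on dying cells and act in their uptake. LPS, a bacterial lipid sensed by TLR4, and IL-4, a cytokine that signals through STAT6, drive macrophages towards inflammatory and alternative activation respectively. In the study, MET, EGFR and PDGFRB were among the kinases considered as inhibitor targets in these macrophages, partly because their genes were regulated in such data, so their changes here are not independent evidence.

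The sequences around the start sites of the 3 members that rose most clearly and have an entry in the RefSeq promoter table of GRCm38.p6 are given first, because they surround the annotated starts of these genes, although no start site was measured here. Each runs 5′ to 3′ on the strand of its gene from 250 bases before the start to 50 bases after it, and capitals mark matches to any of 8 motifs.
Flt1: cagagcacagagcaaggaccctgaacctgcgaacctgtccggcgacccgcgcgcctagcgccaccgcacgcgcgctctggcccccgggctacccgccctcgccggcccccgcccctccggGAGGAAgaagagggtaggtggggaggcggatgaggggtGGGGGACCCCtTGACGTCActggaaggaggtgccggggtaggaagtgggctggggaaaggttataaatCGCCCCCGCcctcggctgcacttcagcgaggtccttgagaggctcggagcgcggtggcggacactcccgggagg
Met: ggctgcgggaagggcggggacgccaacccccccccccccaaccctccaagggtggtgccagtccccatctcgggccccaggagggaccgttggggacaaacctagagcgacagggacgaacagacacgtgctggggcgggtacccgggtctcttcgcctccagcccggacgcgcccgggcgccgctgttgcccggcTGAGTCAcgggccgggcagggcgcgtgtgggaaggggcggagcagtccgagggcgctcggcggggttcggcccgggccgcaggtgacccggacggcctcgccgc
Axl: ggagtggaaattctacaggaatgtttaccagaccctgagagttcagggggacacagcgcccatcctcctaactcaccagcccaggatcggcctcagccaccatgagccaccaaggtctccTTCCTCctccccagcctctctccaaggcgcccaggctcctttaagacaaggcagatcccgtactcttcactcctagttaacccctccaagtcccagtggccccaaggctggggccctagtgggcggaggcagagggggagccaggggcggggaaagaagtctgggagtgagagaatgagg
They lie at chr5:147725962-147726261 on the minus strand for Flt1, at chr6:17463707-17464006 on the plus strand for Met and at chr7:25788684-25788983 on the minus strand for Axl. The motifs, read on both strands, were AP-1 (TGANTCA), CRE (TGACGTCA), the STAT element TTCNNNGAA, the STAT6 element TTCNNNNGAA, PU.1 (GAGGAA), the interferon response element GAAANNGAAA, EGR (GCGGGGGCG) and κB. Flt1 held a PU.1 match starting 130 bases before the start, a κB match at 92, a CRE match at 81 and an EGR match on the other strand at 24. Met held an AP-1 match 54 bases before its start, and Axl a PU.1 match on the other strand at 130. The letters of both STAT elements and of the interferon response element were in none of these 3 windows. Of all 32851 promoters in the table, κB matched 4.51%, CRE 1.79%, AP-1 7.81%, the STAT element 8.30%, the STAT6 element 6.95%, the interferon response element 3.44% and PU.1 28.3%, and EGR matched 2.91%. A match describes the letters of the window and does not show that a factor binds there. Promoter entries existed for 6 of the 9 members. Egfr held 1 match, to PU.1 on the other strand at 80, and Mertk and Igf1r held 0. The end of the window, past the start, was found in 1 GENCODE transcript of Flt1 and 2 of Met but in 0 of Axl. The start used for Axl thus rests on the promoter table alone.

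By the joint test over the 4 times, LPS changed 8 of the 9 members, where 87.6% of all tested genes passed, and IL-4 changed 5 members, where 40.3% of all tested genes passed. Egfr, the ninth, missed that test with LPS but passed at 1 and 2 h. The IL-4 count was 2 without replicate 2 or without replicate 3 and 8 without replicate 1. The share for LPS was thus near that of all genes, and what set the members apart from each other was their direction and timing. After LPS, Met, Pdgfrb, Flt1 and Axl rose strongly, Insr and Csf1r fell, Mertk was lowest at 1 h, and Igf1r fell at 4 h. After IL-4 the dominant change was in Flt1, and the changes of Csf1r, Mertk, Insr and Egfr were smaller. Changes are given as fitted differences of log2(value + 1) with their standard error, which understate the change of genes with low values. The median over all genes after LPS lay at -0.24, -0.30, -0.29 and -0.26 after 0.5 h, 1 h, 2 h and 4 h, while after IL-4 it stayed between -0.02 and 0.02. In bulk samples such as these, fewer cells making a transcript and less transcript per cell cannot be told apart.

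**Figure D1:**
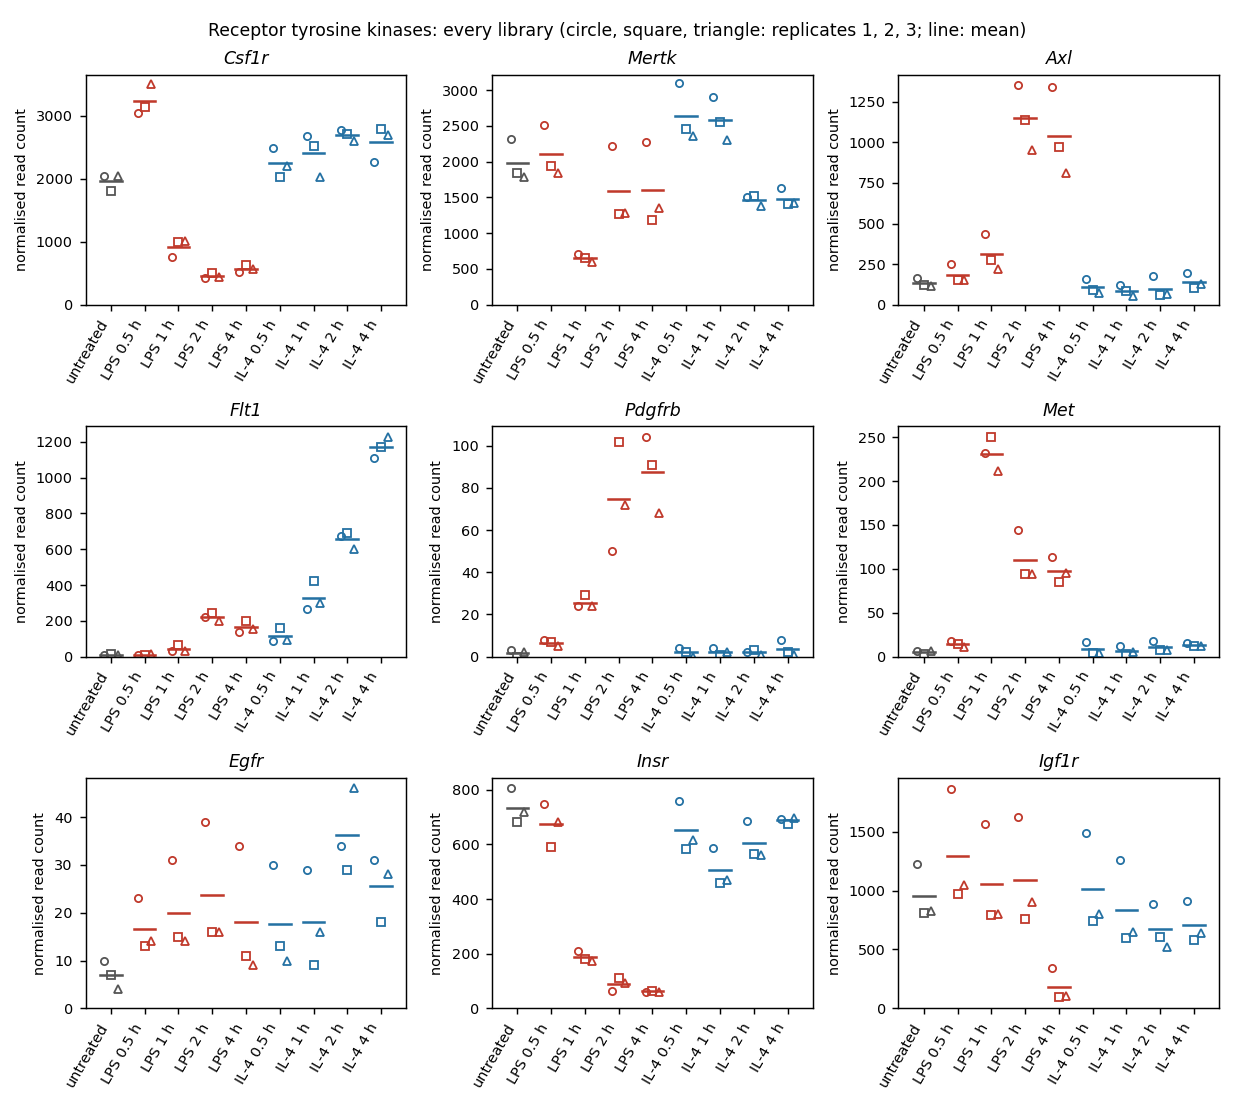
Normalised read count of each receptor gene (vertical axis, from 0) in every library of the untreated group (grey), the LPS groups (red) and the IL-4 groups (blue), with circles, squares and triangles for replicates 1, 2 and 3 and a line at the mean. Flt1 climbed to between 1112 and 1225 at 4 h of IL-4, whereas Met, Pdgfrb and Axl were high in LPS libraries only and Insr fell to between 61 and 64 at 4 h of LPS.

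Csf1r, the receptor for CSF1 and IL-34 that macrophages depend on, lies on chromosome 18 from 61105572 to 61131139 on the plus strand (GRCm38.p6). Its normalised read counts were 2052, 1814 and 2048 in untreated replicates 1, 2 and 3, and 3054, 3149 and 3505 after 0.5 h of LPS. They then dropped to 753, 997 and 1018 after 1 h, 427, 501 and 441 after 2 h, and 522, 627 and 566 after 4 h. None of these LPS groups overlapped the untreated one, so an early excess was followed by a deep deficit. The early difference was 0.71 ± 0.13 (SE) on the log2 scale (adjusted p = 0.000222), 1.64 times the untreated mean, but it was 0.20 (adjusted p = 0.205) once all libraries were scaled to equal totals. The later differences were -1.11 ± 0.13, -2.11 ± 0.13 and -1.79 ± 0.13 (adjusted p = 2.06e-06, 9.09e-10 and 6.33e-09), and they remained at -0.80, -1.82 and -1.53 after taking off the median of all genes. With IL-4 Csf1r ranged from 2030 to 2788 over the 4 times. It was above untreated by 0.45 ± 0.11 at 2 h (adjusted p = 0.009) and 0.39 ± 0.11 at 4 h (adjusted p = 0.0238), and both calls were lost when replicate 2 or replicate 3 was left out. An antisense noncoding gene, Gm52352, covers 8247 bases of Csf1r and had an untreated mean of 641, and because the use of strand in counting is not stated, reads in that stretch cannot be told apart.

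Mertk and Axl belong to the TAM family, whose ligands GAS6 and protein S bridge the receptor to phosphatidylserine on dying cells. At 1 h of LPS they stood on opposite sides of untreated, Mertk lower and Axl higher. Mertk, on chromosome 2 from 128698915 to 128803007 on the plus strand, stood at 2310, 1847 and 1785 in untreated macrophages and at 2513, 1943 and 1843 after 0.5 h of LPS. At 1 h it was at 704, 654 and 597, less than any untreated library, a fall by 1.60 ± 0.24 (adjusted p = 3.06e-05) to 0.329 of the untreated mean. By 2 h it was back at 2219, 1271 and 1277, and at 4 h at 2269, 1191 and 1345. The step from 1 to 2 h was 1.24 ± 0.24 (adjusted p = 0.000533), and the value at 1 h was the lowest of the course. At 2 and 4 h Mertk was at -0.36 and -0.36 against untreated, with adjusted p of 0.194 and 0.205, or 0.0165 and 0.0184 once the replicate number was entered as a block. At equal totals these differences were -1.02 and -0.96 (adjusted p = 0.00109 and 0.00172), so how far Mertk came back depends on the scaling. Replicate 1 overlapped the untreated values at those times while replicates 2 and 3 lay below them. Each LPS library at 2 and 4 h was below the untreated library of its own number.

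With IL-4 Mertk went first up and then down by small amounts. It was at 3092, 2456 and 2357 after 0.5 h, 2900, 2549 and 2301 after 1 h, 1506, 1522 and 1377 after 2 h, and 1627, 1401 and 1420 after 4 h. Each value at 0.5 h exceeded every untreated one, each value at 2 and 4 h was below them all, and the values at 1 h overlapped them. The differences from untreated were 0.41, 0.39, -0.42 and -0.41, each with an SE of 0.13 (adjusted p = 0.04, 0.044, 0.0227 and 0.0279), and all 4 calls were lost without replicate 2 or without replicate 3. At equal totals those at 0.5 and 1 h were lost too, at 0.28 and 0.28 (adjusted p = 0.16 and 0.156). The drop from 0.5 to 4 h, -0.82 ± 0.13 (adjusted p = 0.00031), was the firmer result, and it kept its call under each alternative tried.

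Axl, on chromosome 7 from 25756500 to 25788733 on the minus strand, stood at 162, 120 and 118 in untreated macrophages and 248, 154 and 154 after 0.5 h of LPS. It reached 435, 276 and 223 after 1 h, 1352, 1134 and 953 after 2 h, and 1338, 969 and 811 after 4 h. From 1 h on, the lowest LPS value exceeded the highest untreated one. The rises were 1.18 ± 0.26, 3.10 ± 0.26 and 2.94 ± 0.26 at 1, 2 and 4 h (adjusted p = 0.000933, 3.87e-08 and 7.11e-08), and the mean at 2 h was 8.60 times the untreated one. At 0.5 h the difference was 0.45 ± 0.26 (adjusted p = 0.153, or 0.00199 with the replicate block), and at equal totals it turned to -0.06 (adjusted p = 0.857). IL-4 left Axl between 54 and 196, with differences of -0.69 ± 0.42 at 1 h and -0.58 ± 0.42 at 2 h (adjusted p = 0.294 and 0.35, or 0.0149 and 0.03 with the block). Replicate 1 held the highest Axl value in all 9 groups at a median of 1.71 times the mean of the other two. Tyro3, the remaining TAM receptor, had a highest group mean of 1 and was not tested.

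Flt1 encodes VEGF receptor 1, which binds VEGF-A, VEGF-B and placental growth factor and is known on monocytes as well as on endothelium. It lies on chromosome 5 from 147561604 to 147726011 on the minus strand. Untreated libraries held 7, 14 and 9, next to 85, 159 and 94 after 0.5 h of IL-4 and 267, 420 and 298 after 1 h. At 2 h IL-4 libraries held 675, 689 and 602, and at 4 h 1112, 1171 and 1225. Every IL-4 library lay above every untreated one, and the 4 IL-4 groups did not overlap each other. The rises were 3.36, 4.93, 5.95 and 6.78 on the log2 scale, each with an SE of 0.25, with adjusted p from 6.14e-07 at 0.5 h to 6.91e-10 at 4 h. The mean at 4 h was 117 times that of untreated macrophages, a ratio that rests on untreated values of only 7, 14 and 9.

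LPS raised Flt1 as well, but later and less. The values were 9, 11 and 13 after 0.5 h, 31, 65 and 34 after 1 h, 224, 246 and 197 after 2 h, and 140, 199 and 152 after 4 h. The group at 0.5 h overlapped the untreated one, and those from 1 h on did not. The differences were 0.16 ± 0.29 (adjusted p = 0.657), 1.98 ± 0.29 (adjusted p = 2.24e-05), 4.39 ± 0.29 (adjusted p = 2.37e-09) and 3.94 ± 0.29 (adjusted p = 8.24e-09). With a pseudocount of 8 the difference at 2 h of LPS was 3.69. None of the calls of Flt1 against untreated changed under any alternative. The antisense noncoding gene Gm35383 covers 8757 bases of the gene and went from an untreated mean of 0.667 to 88.7 in its highest group, so some of the reads there cannot be assigned to 1 strand. Of 10 endothelial markers, Cdh5, Tek, Tie1, Emcn, Cldn5 and Esam did not exceed 6 in any library, whereas the summed list went from 56 to 67 in untreated to 202 to 274 at 4 h of IL-4, carried by Pecam1 and Vwf, and to 202 to 256 at 4 h of LPS. The part of other cells in the Flt1 values was not tested.

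Met encodes the receptor of hepatocyte growth factor, a regulator of epithelial growth and motility. It lies on chromosome 6 from 17463957 to 17573980 on the plus strand. Untreated libraries held 6, 3 and 6, and LPS libraries 18, 14 and 11 after 0.5 h and 232, 250 and 212 after 1 h. The values came down to 144, 94 and 94 after 2 h and 113, 85 and 95 after 4 h. Every LPS library was above every untreated one, with the peak at 1 h. The rises were 1.38, 5.32, 4.23 and 4.08, each with an SE of 0.26, with adjusted p from 0.000332 at 0.5 h to 1.27e-10 at 1 h, and the decline from 1 to 2 h was by 1.08 ± 0.26 (adjusted p = 0.00266), a call lost without replicate 2 (adjusted p = 0.0507). A pseudocount of 8 in place of 1 lowered the fitted rise at 1 h to 4.21, since the untreated values are so low. IL-4 libraries held between 3 and 18. At 4 h of IL-4, with 15, 12 and 12, the difference was 1.26 ± 0.54 (adjusted p = 0.106, or 0.00956 with the block), and at 2 h it was 0.93 ± 0.54 (adjusted p = 0.23, or 0.0437 with the block). Antisense noncoding genes overlap Met, Egfr and Igf1r too, and their highest group means were at most 7.67, 4.33 and 45.7. The 6 epithelial markers summed to at most 3 in any LPS library.

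Insr and Igf1r encode the receptors of insulin and of insulin-like growth factor 1, closely related kinases that signal through IRS proteins, and LPS lowered them at different times. Insr, on chromosome 8 from 3150922 to 3279617 on the minus strand, was at 804, 682 and 717 in untreated macrophages and 747, 591 and 681 after 0.5 h of LPS. It was at 211, 180 and 175 after 1 h, 64, 111 and 92 after 2 h, and 61, 64 and 62 after 4 h. The first of these groups overlapped the untreated one and the later ones lay far below it. At 0.5 h the difference was -0.13 (adjusted p = 0.543), or -0.64 at equal totals (adjusted p = 0.0038). The differences were -1.96, -3.06 and -3.53 after 1, 2 and 4 h, each with an SE of 0.17 (adjusted p = 9.18e-08, 3.45e-10 and 5.84e-11), and the mean at 4 h was 0.0849 of the untreated one. With IL-4 Insr was lower at 1 h, at 587, 458 and 470, by 0.54 ± 0.12 (adjusted p = 0.00463), a call lost without replicate 2 or without replicate 3. At 2 h the difference was -0.29 ± 0.12 (adjusted p = 0.0975, or 0.00498 with the block), and by 4 h of IL-4 the values were 693, 675 and 695.

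Igf1r, on chromosome 7 from 67952257 to 68233667 on the plus strand, was at 1225, 806 and 826 in untreated macrophages. It was at 1863, 969 and 1046, then 1566, 789 and 804, then 1619, 760 and 899 at 0.5, 1 and 2 h of LPS, and these groups overlapped the untreated one. At 0.5 h the difference was 0.40 ± 0.43 (adjusted p = 0.456, or 0.04 with the block), and at equal totals it turned to -0.11 (adjusted p = 0.844). Only at 4 h was it low, at 342, 96 and 107, a fall by 2.61 ± 0.43 (adjusted p = 7.79e-05) to 0.191 of the untreated mean. Nearly all of that came between 2 and 4 h, a step of -2.76 ± 0.43 (adjusted p = 0.000286). With IL-4 Igf1r was at 887, 607 and 521 after 2 h and 911, 577 and 641 after 4 h, with differences of -0.51 ± 0.33 and -0.42 ± 0.33 (adjusted p = 0.284 and 0.396, or 0.00105 and 0.0043 with the block). Each IL-4 library at 2 and 4 h was below the untreated library of its own number, although the groups overlapped. Replicate 1 was the highest of its group in all 9 groups, at a median of 1.93 times the mean of the other two.

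Pdgfrb encodes the PDGF receptor β chain of pericytes and fibroblasts, and lies on chromosome 18 from 61045150 to 61085067, with its end 20504 bases before the start of Csf1r on the same strand. Untreated libraries held 3, 0 and 2. LPS libraries held 8, 7 and 5 after 0.5 h, 24, 29 and 24 after 1 h, 50, 102 and 72 after 2 h, and 104, 91 and 68 after 4 h. Each LPS library exceeded each untreated one, and the values were still low beside Csf1r. The fitted rises were 1.72, 3.54, 4.99 and 5.25, each with an SE of 0.42 (adjusted p = 0.00284, 3.05e-06, 4.78e-08 and 2.62e-08), and with a pseudocount of 8 that at 4 h was 3.30, so no fold change is given. IL-4 libraries held between 0 and 8, and no change passed over the IL-4 course (adjusted p = 0.895). Among stromal markers Lum and Thy1 were at 0 in every library, and Pdgfra, Col3a1 and Dcn did not exceed 11. Col1a1 and Col1a2 were present in every library, at 8 to 95 and 16 to 128, and Acta2 and Postn reached 29 and 23. Pdpn of the same list went from a mean of 1 in untreated to 28.7 at 1 h of LPS. The summed list of 10 lay at 54 to 107 in untreated, 71 to 289 at 1 h of LPS and 62 to 231 at 4 h, and the part of stromal cells in the Pdgfrb values was not tested.

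Egfr encodes the epidermal growth factor receptor and lies on chromosome 11 from 16752203 to 16913907 on the plus strand. It was low everywhere, at 10, 7 and 4 in untreated macrophages, 31, 15 and 14 after 1 h and 39, 16 and 16 after 2 h of LPS. With IL-4 it was at 34, 29 and 46 after 2 h and 31, 18 and 28 after 4 h. These 4 groups lay above the untreated one without overlap. The rises were 1.38 ± 0.50 and 1.57 ± 0.50 with LPS (adjusted p = 0.0251 and 0.0119) and 2.27 ± 0.45 and 1.77 ± 0.45 with IL-4 (adjusted p = 0.00182 and 0.0101). At equal totals the LPS rises were 0.85 and 0.97 (adjusted p = 0.135 and 0.0862). Without replicate 2 or without replicate 3 both LPS calls and the call at 4 h of IL-4 were lost, and without replicate 3 the difference at 2 h of IL-4 was 1.79 (adjusted p = 0.0905). Over the whole LPS course Egfr had an adjusted p of 0.0593, or 0.000389 with the replicate block. At 0.5 and 4 h of LPS its differences were 1.17 ± 0.50 and 1.08 ± 0.50 (adjusted p = 0.0597 and 0.0696, or 0.00145 and 0.00213 with the block). At 0.5 and 1 h of IL-4 they were 1.15 ± 0.45 and 1.18 ± 0.45 (adjusted p = 0.11 and 0.0849, or 0.0233 and 0.0164 with the block). Replicate 1 was highest in 8 of 9 groups, at a median of 2.06 times the mean of the other two. The stromal genes Col1a1 and Col1a2 were also higher in that replicate, at 35 to 95 and 53 to 128 against 8 to 28 and 16 to 42 in replicates 2 and 3. Without replicate 1 the difference of Egfr at 2 h of IL-4 was 2.57, and the part of stromal cells was not tested.

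**Figure D2:**
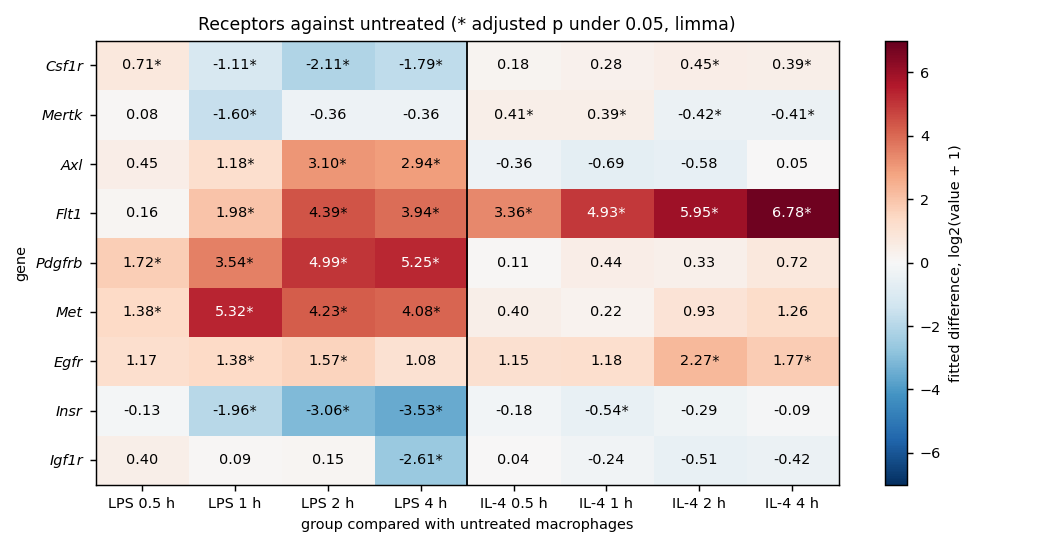
Fitted difference from untreated macrophages on the log2(value + 1) scale (colour and number) for each receptor gene (rows) in each LPS and IL-4 group (columns), with an asterisk where the adjusted p was under 0.05. Flt1 is the only row whose IL-4 side exceeds 3, reaching 6.78, while on the LPS side Met, Pdgfrb, Axl and Flt1 are positive and Insr reaches -3.53.

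Counted by time, 3 members were higher at 0.5 h of LPS, where 19.6% of all genes were. At 1 h 5 were higher and 3 lower, against 24.8% and 39.0% of all genes, at 2 h 5 were higher and 2 lower, against 26.9% and 39.0%, and at 4 h 4 were higher and 3 lower, against 25.9% and 37.6%. The median difference of the 9 members was 0.45, 1.18, 1.57 and 1.08 at these times. With IL-4, 2 members were higher at 0.5 h (8.15% of all genes), after 1 h 2 rose and 1 fell (11.1% and 9.83%), and 3 were higher and 1 lower both after 2 h (14.3% and 13.2%) and after 4 h (13.4% and 12.5%). The members' medians were then 0.18, 0.28, 0.33 and 0.39. With the replicate block 6 members rather than 3 differed at 0.5 h of LPS, and 5 rather than 3 at 1 h and 8 rather than 4 at 2 h of IL-4. Over the whole IL-4 course 8 of the 9 passed with the block, against 5 without it, the added ones being Axl, Igf1r and Met (adjusted p = 0.0136, 0.000878 and 0.0274).

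Most movement after LPS fell before 2 h. Between 0.5 and 1 h 7 of the 9 members changed (49.7% of all genes), between 1 and 2 h 7 changed (43.3%), and between 2 and 4 h Igf1r did (22.9%). With the block Csf1r and Insr also changed between 2 and 4 h (adjusted p = 0.0274 and 0.0361, against 0.0804 and 0.0567). The first step of Axl was lost without replicate 2 or without replicate 3, and the first and second steps of Pdgfrb without replicate 3. With IL-4 Flt1 was the member that changed between 0.5 and 1 h (7.82%), and Flt1 and Mertk changed between 1 and 2 h (9.40%). Both steps of Flt1 were lost without replicate 3, the second also without replicate 1, and that of Mertk without replicate 2 or without replicate 3. With the block Insr changed in both steps (adjusted p = 0.00282 and 0.0197) and Egfr in the second (adjusted p = 0.0399). Between 2 and 4 h of IL-4 limma called 0 members (5.48%), and 1 had an unadjusted p under 0.05. From 0.5 h to 4 h 7 members differed with LPS (63.0%) and 2 with IL-4 (27.3%), and the block added Mertk with LPS (adjusted p = 0.0053, against 0.123) and Igf1r with IL-4 (adjusted p = 0.00239, against 0.33). The gene that missed the threshold between 2 and 4 h of IL-4 was Flt1, at 0.84 ± 0.25 (adjusted p = 0.0689, or 0.00311 with the block), and its groups at 2 and 4 h did not overlap. With the block Axl passed as well (adjusted p = 0.0498).

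With LPS and IL-4 set against each other at the same time, some members were higher with LPS and others with IL-4. Csf1r changed side after 0.5 h, and Egfr passed at no time. At 0.5 h 2 members were higher and 1 lower with LPS (18.0% and 35.8% of all genes), at 1 h 3 and 4 (24.0% and 40.5%), at 2 h 3 and 3 (26.4% and 42.3%), and at 4 h 3 and 4 (26.1% and 41.9%). Flt1 was lower with LPS at every time, with differences of -3.20, -2.94, -1.56 and -2.84, each with an SE of 0.26, and the narrowest gap was at 2 h (adjusted p = 1.18e-05). Met was higher with LPS by 5.10, 3.30 and 2.81 at 1, 2 and 4 h, each with an SE of 0.43 (adjusted p = 3.94e-10, 3.71e-07 and 3.86e-06). At 0.5 h Met differed by 0.98 ± 0.43 (adjusted p = 0.0605, or 0.00727 with the block). Axl was higher by 1.86, 3.67 and 2.89 at 1, 2 and 4 h, each with an SE of 0.37 (adjusted p = 0.000114, 5.05e-09 and 2.55e-07), and by 0.81 ± 0.37 at 0.5 h (adjusted p = 0.0668, or 0.000147 with the block).

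Pdgfrb was higher with LPS at all 4 times, by 1.62 ± 0.57 at 0.5 h (adjusted p = 0.0187, or 0.0555 at equal totals, 0.0769 without replicate 2 and 0.207 without replicate 3) and by 4.53 ± 0.57 at 4 h (adjusted p = 1.8e-07). Csf1r was higher with LPS at 0.5 h by 0.53 ± 0.12 (adjusted p = 0.000869, or 0.34 at equal totals) and lower afterwards, at -1.39, -2.56 and -2.17, each with an SE of 0.12. Insr was lower with LPS, at -1.41, -2.78 and -3.44 after 1, 2 and 4 h, each with an SE of 0.15 (adjusted p = 2.25e-08, 9.03e-14 and 1.51e-15). Mertk was lower with LPS at 1 h by 1.98 ± 0.20 (adjusted p = 1.04e-08), and at 2 and 4 h it differed by 0.06 and 0.06, each with an SE of 0.20, where equal totals turned the sign to -0.57 at both times. At 0.5 h Mertk was at -0.33 (adjusted p = 0.182, or 0.0195 with the block and 0.00378 at equal totals). Igf1r was lower with LPS at 4 h, by 2.19 ± 0.42 (adjusted p = 6.94e-05), and at 2 h it was at 0.66 ± 0.42 (adjusted p = 0.166, or 0.000307 with the block). At 0.5 and 1 h Igf1r was at 0.37 and 0.34 (adjusted p = 0.493 and 0.499, or 0.0374 and 0.0483 with the block), and equal totals turned both signs. Egfr did not pass at any time, with -0.70 ± 0.49 at 2 h and -0.69 ± 0.49 at 4 h (adjusted p = 0.215 and 0.222, or 0.0454 and 0.0482 with the block, and 0.0195 and 0.0216 at equal totals).

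Levels can be compared between genes only per length, and whether the counts cover exons or whole genes is not stated, so both lengths were used. Per kilobase of cDNA, Csf1r led in untreated macrophages at a mean of 509 normalised reads, followed by Mertk at 444, Igf1r at 79.5, Insr at 78.2 and Axl at 26.2. The ranges of Csf1r and Mertk overlapped, as did those of Igf1r and Insr. Egfr, Flt1, Met and Pdgfrb were at 1.09, 0.912, 0.752 and 0.308, and each overlapped the next. Per kilobase of the whole gene the order was Csf1r at 77.1, Mertk at 19.0, Insr at 5.71, Axl at 4.14 and Igf1r at 3.38, with the same 4 genes at the bottom.

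At 4 h the order differed between the stimuli. Per kilobase of cDNA, Mertk led after LPS at 359, followed by Axl at 204 and Csf1r at 148, whose ranges overlapped each other. Pdgfrb, Igf1r, Flt1 and Met then lay close together at 16.2, 15.2, 14.9 and 14.7, each overlapping the next, and Insr at 6.64 and Egfr at 2.80 came last. Per kilobase of the whole gene Axl led instead at 32.2, above Csf1r at 22.4 and Mertk at 15.4, whose ranges overlapped. After IL-4 Csf1r led at 667, Mertk followed at 333 and Flt1 came next at 107, with no overlap among the 3. Insr at 73.2 and Igf1r at 59.2 overlapped, and Axl was at 27.8.

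**Figure D3:**
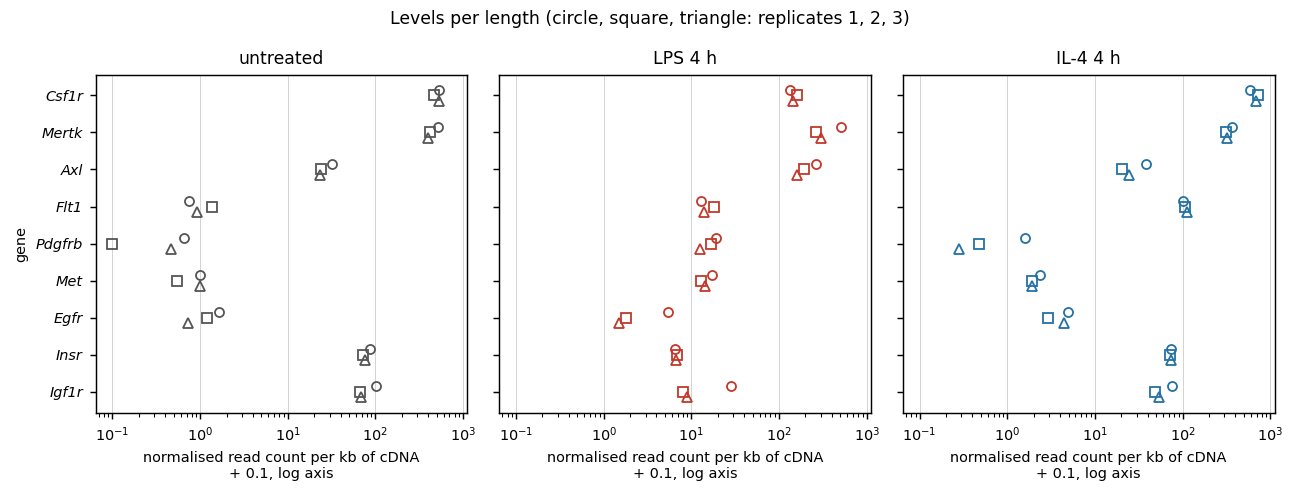
Normalised read count per kilobase of cDNA plus 0.1 on a log axis for each receptor gene (rows) in the 3 libraries of the untreated, LPS 4 h and IL-4 4 h groups. Axl stands beside Csf1r after LPS, with means of 204 and 148, and Flt1 lies above Insr after IL-4, with means of 107 and 73.2.

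The genes whose 9 group means followed each member most closely were sought among about 7740 other regulated genes by Pearson's r, which describes likeness over groups that share the untreated samples. Flt1 was most like Chst7 (r = 0.970), Rasgrp1 (0.955) and Xbp1 (0.944). Rasgrp1, a Ras activator, went from a mean of 2 in untreated to 483 at 4 h of IL-4. Met was most like Ube2z (0.985), 4930487H11Rik (0.984) and the Hippo kinase gene Lats1 (0.982). Axl was most like B2m (0.994), the light chain of MHC class I, with Patl2 (0.994) and Grk3 (0.991). Pdgfrb was most like Traf2 (0.994), Ccnl2 (0.993) and Isg15 (0.993), an interferon-induced ubiquitin-like protein.

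Among the members that fell, Csf1r was most like Nrros (0.988), Cradd (0.986) and Suclg2 (0.985). Insr was most like Map2k6 (0.999), the kinase that activates p38, which went from 165 in untreated to 1 at 4 h of LPS, and then 2900026A02Rik (0.994) and Slc25a36 (0.994). Igf1r was most like AW554918 (0.982), Insyn2b (0.979) and Plcl1 (0.965). Mertk with Cwc27 (0.922), Rexo5 (0.902) and Abcg2 (0.892) and Egfr with H13 (0.869), LOC115486538 (0.860) and Fn1 (0.853) had looser partners, and for these 2 members the likeness is weak beside the others.

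Of 21 ligand genes of these receptors 12 were tested, of which 11 changed with LPS, 5 upwards and 6 downwards at their largest change, and 7 with IL-4, 3 upwards and 4 downwards, beside the 87.6% and 40.3% of all tested genes given above. Their median difference was 0.68 at 0.5 h and -1.01 at 4 h of LPS, and 0.06 and 0.13 at these times of IL-4. Csf1, whose product is the main ligand of CSF1R, rose from a mean of 18.7 ± 12.0 (SD, n = 3) to 527 ± 9.87 at 2 h of LPS, a difference of 4.96 ± 0.41 (adjusted p = 3.87e-08), while Csf1r was at its lowest. Gas6, which activates MERTK and AXL, fell from 566 ± 144 to 13.7 ± 2.31 at 4 h of LPS (adjusted p = 5.87e-11), while Axl was high. Hgf, the ligand of MET, fell from 271 ± 76.2 to 14.3 ± 2.52 at 1 h of LPS (adjusted p = 3.03e-08), the time at which Met peaked. Pdgfb, which binds PDGFRB, rose from 66.7 ± 6.11 to 421 ± 121 at 1 h of LPS (adjusted p = 3.6e-06), and was below untreated by 4 h, at -0.99 ± 0.31 (adjusted p = 0.0122).

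With IL-4, Igf1, the ligand of IGF1R, rose from 1601 ± 483 to 6270 ± 916 at 4 h, by 2.00 ± 0.23 (adjusted p = 1.96e-05). LPS first raised Igf1, by 2.47 ± 0.21 at 0.5 h (adjusted p = 1.68e-07), and it was at -3.49 by 4 h of LPS. Pdgfb fell to 12 ± 4.36 at 0.5 h (adjusted p = 9.54e-05) and Hgf to 66 ± 20.9 at 2 h (adjusted p = 0.000111).

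**Figure D4:**
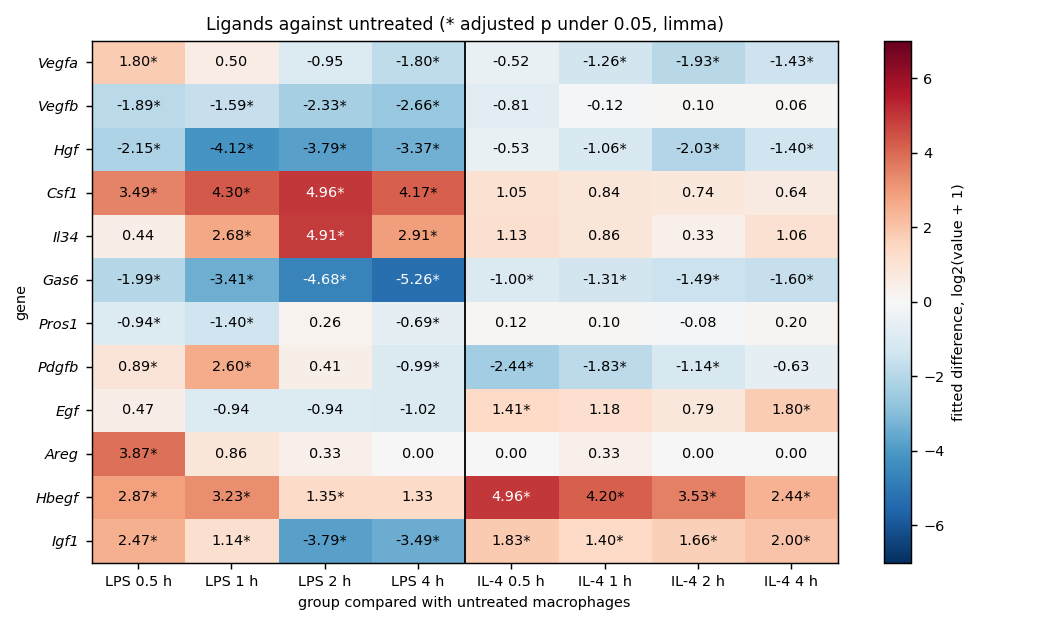
Fitted difference from untreated macrophages on the log2(value + 1) scale (colour and number) for the 12 tested ligand genes (rows) in each LPS and IL-4 group (columns), with an asterisk where the adjusted p was under 0.05. Csf1 reaches 4.96 and Gas6 -5.26 with LPS. Igf1 stands at 2.00 at 4 h of IL-4, and with LPS at 2.47 at 0.5 h and -3.49 at 4 h.

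All 7 co-receptor genes were tested, and 7 changed with LPS (3 upwards, 4 downwards) and 6 with IL-4 (4 upwards, 2 downwards). Of all tested genes 87.6% and 40.3% did. The median difference of the list was 0.88 at 0.5 h and -1.31 at 4 h of LPS, and 1.22 and -0.24 at these times of IL-4. Nrp1, a VEGF co-receptor that acts beside FLT1, fell from 1903 ± 423 to 347 ± 14.6 at 1 h of LPS and to 303 ± 62.4 at 2 h of IL-4 (adjusted p = 3.49e-08 and 3.56e-07). Cd44, which can assist MET, rose from 1328 ± 224 to 24617 ± 2424 at 1 h of LPS (adjusted p = 1.99e-10), and the integrin chain Itgav to 11921 ± 1810 from 839 ± 55.7 (adjusted p = 3.78e-11). The scavenger receptor Cd36 fell from 321 ± 42.4 to 48.3 ± 13.2 at 2 h of LPS and rose to 3350 ± 1408 at 0.5 h of IL-4 (adjusted p = 4.89e-06 and 1.4e-05). Its means at other times lay on the other side of untreated, at 635 after 0.5 h of LPS and 146 after 4 h of IL-4. Itgb3 rose from 12.3 ± 3.06 to 105 ± 4.36 at 4 h of IL-4, and Lrp1 fell from 2446 ± 385 to 638 ± 61.7 at 2 h of IL-4 (adjusted p = 2.57e-08 and 6.06e-06).

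Of 26 genes for inhibitors and turnover of the receptors 22 were tested. Of these 21 changed with LPS (12 upwards, 9 downwards) and 14 with IL-4 (9 upwards, 5 downwards), beside 87.6% and 40.3% of all tested genes. The median difference of the list was 0.47 at 0.5 h and 0.19 at 4 h of LPS, and 0.37 and 0.06 at these times of IL-4. Errfi1, which encodes the EGFR inhibitor MIG6, rose from 20.7 ± 0.577 to 1995 ± 162 at 0.5 h of LPS, 96.5 times the untreated mean (adjusted p = 5.35e-13), and to 79.7 ± 12.7 at 0.5 h of IL-4 (adjusted p = 0.000548). Spred1, an inhibitor of Ras signalling, rose from 784 ± 47.8 to 7116 ± 476 at 1 h of LPS (adjusted p = 1.68e-12). Ptpn6, which encodes the phosphatase SHP-1, fell from 428 ± 29.6 to 148 ± 12.1 at 0.5 h of LPS, and Dok3 from 75.3 ± 9.87 to 21 ± 5.57 at 2 h (adjusted p = 2.29e-07 and 1.81e-05). By 4 h of LPS Ptpn6 was at 1079 ± 129, above untreated, and Dok3 at 88. With IL-4 the adaptor-type inhibitor Dok2 rose from 28.3 ± 8.02 to 103 ± 6.81 at 4 h (adjusted p = 5.63e-05), and Spred2 fell from 148 ± 17.9 to 48.7 ± 23.1 (adjusted p = 0.000454), a call lost without replicate 3, after a mean of 255 at 1 h. Igf2r, which removes IGF2, fell from 72 ± 9.17 to 32.7 ± 21.1 at 4 h of IL-4 (adjusted p = 0.0148), a call lost without replicate 2 or replicate 3.

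All 28 adaptor and proximal signalling genes were tested, and 27 changed with LPS (15 upwards, 12 downwards) and 18 with IL-4 (5 upwards, 13 downwards). Of all tested genes 87.6% and 40.3% did. The median difference of the list was 0.16 at 0.5 h and -0.52 at 4 h of LPS, and -0.16 and -0.09 at these times of IL-4. With LPS Pik3r5, a regulatory subunit of PI3Kγ, rose from 809 ± 47.6 to 10218 ± 923 at 1 h, and the Ras exchange factor Sos1 from 299 ± 30.9 to 2270 ± 505 at 4 h (adjusted p = 2.3e-12 and 2.61e-10). The docking protein genes Gab3 and Gab1 fell from 978 ± 247 to 14 ± 3.61 after 2 h and from 647 ± 115 to 68 ± 20.9 after 4 h (adjusted p = 1.29e-12 and 1.07e-07). Sos1 had first been lower, at 142 after 0.5 h, and Gab1 higher, at 1023. With IL-4 Irs2, the substrate that couples both the IL-4 and the insulin receptor to PI3K, rose from 52 ± 7 to 183 ± 27.3 at 0.5 h, and Pik3r1 from 870 ± 98.7 to 1809 ± 22.5 (adjusted p = 3.09e-06 and 5.73e-07). Vav3 fell from 3204 ± 60.1 to 748 ± 278 and Gab1 to 171 ± 19.3 at 4 h of IL-4 (adjusted p = 2.55e-06 and 3.36e-06), Vav3 after a mean of 4691 at 1 h.

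Of 49 other receptor tyrosine kinase genes only 13 passed the filter. Of these 7 changed with LPS (4 upwards, 3 downwards) and 4 with IL-4 (3 upwards, 1 downwards), beside 87.6% and 40.3% of all tested genes. The median difference of the list was 0.05 at 0.5 h and 0.49 at 4 h of LPS, and 0.41 and 0.04 at these times of IL-4. Kdr, which encodes VEGF receptor 2, rose from 4 ± 1 to 159 ± 21.1 at 4 h of LPS (adjusted p = 3.66e-08), and Epha1 from 19.3 ± 1.53 to 71.3 ± 4.51 at 0.5 h (adjusted p = 0.000166). Aatk fell from 150 ± 28.4 to 3.33 ± 2.89 at 2 h of LPS, and Lmtk2 from 71.3 ± 7.64 to 26.3 ± 3.79 at 4 h (adjusted p = 2.08e-07 and 1.74e-05). With IL-4 no gene of this list met the rule for naming, which asked for a mean of at least 50. Of the genes named from the gene lists, Kdr, Epha1, Aatk, Csf1, Pdgfb, Hgf, Igf1, Gab1 and Gab3 overlap another annotated gene. The same holds for Irs2, Errfi1, Igf2r, Cd44, Nrp1 and Lrp1, and the reads of the overlap cannot be assigned.

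The macrophage label was checked against 10 markers, which were all tested and summed to between 7969 and 24124 per library, with the highest at 1 h of IL-4, where Mrc1 was also highest. Lymphoid markers Cd3e and Cd3g, the neutrophil marker Ly6g and the keratins Krt8 and Krt5 were at 0 in every library. The same lists also held genes that moved, namely Zbtb46 with a mean of 60.7 at 1 h of LPS against 3.33 in untreated, Cdh1 with 40.7 at 1 h of IL-4 against 0, Ltf with 24.3 at 2 h of LPS against 3.67, and Flt3 with 12 at 1 h of IL-4 against 0.667. The summed lymphoid and dendritic list lay at 8 to 14 in untreated and 50 to 102 at 1 h of LPS, when Met peaked, and its part in the results was not tested. The table's totals ran from 3571492 to 4058199 in the 12 LPS libraries and from 2469768 to 2790981 in the other 15, and because the values were scaled by the authors these are not sequencing depths. In 24 of the 27 libraries every whole number from 1 to 20 occurred, so the reads behind a value cannot be read off. The counting error of Met, Pdgfrb, Egfr and untreated Flt1 is thus unknown. Summed stromal markers were 107 to 289 in replicate 1 against 46 to 108 in replicate 2 and 46 to 71 in replicate 3, and neutrophil and progenitor markers reached 97 in replicate 1 against 20 and 22. The members highest in replicate 1 in 8 or 9 of 9 groups were Axl, Igf1r, Mertk and Egfr, and Flt1 was lowest in replicate 1 in 7.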

How the data were processed

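Chromatin-associated RNA of 27 macrophage samples (untreated, and LPS or IL-4 at 4 times, 3 replicates each) was sequenced by the authors with a Smart-seq2 type protocol and single-end reads. Reads were aligned by the authors to mm10 with TopHat2 2.1.1, reads with several positions or in blacklisted regions were removed with bedtools 2.29.2, and reads per RefSeq gene of GRCm38.p6 were scaled on genes judged invariant. The deposited values are normalised read counts rounded to whole numbers, and they were entered as a score, since no raw counts were used. Whether counting used strand, or exons only, is not given in the sources used here. Depth per library cannot be recovered from scaled values.

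The test was kept to genes that reached 10 in 3 or more samples (13901 of 45070, holding 99.6% of the summed values). limma 3.58.1 in R 4.3.3 with a mean-variance trend was fitted to log2(value + 1), for each course on its 15 samples and for LPS against IL-4 on all 27, two-sided, with Benjamini-Hochberg adjustment over all tested genes and a threshold of 0.05. An impulse model as in the study was not run. Tables, promoters and figures were made in Python 3.11.15 with pandas 2.3.3 and matplotlib 3.10.9. In simulated data with 200 changed genes, the contrast of LPS at 2 h with untreated recovered 54.5% of changes of 1 and 99.1% of changes of 2 on the log2 scale, with 6 false calls among 13901 genes. All simulated means were held above those of untreated Flt1, Egfr, Met and Pdgfrb. Every gene had the same spread before counting noise, and no replicate effect was put in. The figures therefore do not apply to these low members or to replicates that deviate together.

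The labels give the groups the same replicate numbers. Deviations from the group means correlated between same-numbered samples in all 36 pairs of each number, with a lowest r of 0.42, 0.16 and 0.28 for replicates 1, 2 and 3 over 6827 genes. The numbers were therefore taken as pairing the samples, and a fit with the number as a block was run. The main fit left this pairing out, and it gave all counts and calls for which no block is named. Other alternatives were median-of-ratios scaling, equal totals, a pseudocount of 8, no filter, a mean of at least 50, sample weights, all samples in 1 fit, only the 2 groups compared, replicates 2 and 3 averaged, and leaving out each replicate.

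The members and gene lists were chosen with earlier results of these data known. From each list the text names the 2 genes with the largest rise and the 2 with the largest fall per stimulus among those past 0.05 over the course with a mean of at least 50 in the higher of the peak and untreated groups. For each member it names the 3 genes of highest r over the 9 group means that do not overlap it, reach 50 and range over at least 1 on the log2 scale.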

Additional observations from a re-analysis of the deposited data

Results flagged for a closer look

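For 7 members the change from untreated differed between 4 h and 0.5 h of LPS by a test of the difference itself. Axl (2.49, adjusted p = 5.11e-07), Flt1 (3.78, adjusted p = 1.52e-08), Met (2.7, adjusted p = 1.9e-07) and Pdgfrb (3.53, adjusted p = 2.54e-06) stood higher at the later time. Csf1r (-2.5, adjusted p = 1.39e-10), Igf1r (-3.01, adjusted p = 1.91e-05) and Insr (-3.41, adjusted p = 1.09e-10) stood lower. With IL-4 such a difference was found for Flt1 (3.42, adjusted p = 5.71e-07) and Mertk (-0.82, adjusted p = 0.00031). The values are on the log2(value + 1) scale, and 63.0% of all tested genes differed in this way with LPS and 27.3% with IL-4. With the replicate block Mertk with LPS (adjusted p = 0.0053) and Igf1r with IL-4 (adjusted p = 0.00239) passed as well. Groups of 3 are too small for a check of single outlying samples.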

How the results depend on the processing

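With LPS the number of members past 0.05 over the course, at 1, 2 or 4 h against untreated or against IL-4, and between 0.5 h and 1 h, 1 h and 2 h or 0.5 h and 4 h, stayed within 1.5 times the reported count under the alternatives run. The fit with the replicate number as a block, read as a paired analysis, gained 36 of 198 member calls and lost 0. It gave 8 members over the IL-4 course, 6 after 0.5 h of LPS, 7 for LPS against IL-4 at 0.5 h, 5 and 8 after 1 h and 2 h of IL-4, and 2, 4 and 2 for the IL-4 steps to 1, 2 and 4 h and 3 for the LPS step from 2 to 4 h. The blocked p-values of these 36 stand beside the differences above, and the block changed no other member call. No filter on low values gave 3 members over the IL-4 course, 1 at 0.5 h, 2 at 4 h and 1 for the step to 2 h, and 2 of the other receptor tyrosine kinases. Replicates 2 and 3 averaged gave 2 members over the IL-4 course, 1, 1, 2 and 1 at the 4 times and 0 for the step to 2 h, and 1 of the other receptor tyrosine kinases, 4 ligands, 11 adaptors and 9 inhibitors with IL-4. At 0.5 h of IL-4, median-of-ratios scaling, equal totals, all samples in 1 fit and only the 2 groups compared each gave 1. Median-of-ratios scaling and sample weights each gave 5 for LPS against IL-4 at 0.5 h. For the LPS step from 2 to 4 h, median-of-ratios scaling, a mean of at least 50 and all samples in 1 fit each gave 2, and sample weights 3. Sample weights gave 2 for the IL-4 step to 1 h and 4 from 0.5 h to 4 h. For the IL-4 step from 2 to 4 h, a pseudocount of 8, a mean of at least 50, sample weights and only the 2 groups compared each gave 1. A mean of at least 50 left 1 of the other receptor tyrosine kinases with LPS and 0 with IL-4, and 7 and 4 ligands, since fewer genes were then tested.

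Leaving out 1 replicate at a time gave 2 to 8 members over the IL-4 course (8 without replicate 1, 2 without replicate 2), and against untreated 1 to 3, 1 to 5, 1 to 7 and 1 to 6 after 0.5 h, 1 h, 2 h and 4 h of IL-4. It gave 0 to 2, 0 to 3 and 0 to 2 for the IL-4 steps to 1, 2 and 4 h and 2 to 6 from 0.5 h to 4 h. It gave 3 to 6 at 0.5 h of LPS, 2 to 7 for LPS against IL-4 at 0.5 h and 1 to 3 for the LPS step from 2 to 4 h. Among the lists it gave 6 to 10 other receptor tyrosine kinases with LPS, and 0 to 5 of them, 3 to 8 ligands, 10 to 20 adaptors and 8 to 17 inhibitors with IL-4. Over all tested genes the IL-4 course count of 5606 became 2503 with replicates 2 and 3 averaged, 2234 without replicate 2 and 2169 without replicate 3, and the LPS course count of 12174 became 6218 with a mean of at least 50. Mertk against IL-4 reversed at 2 h of LPS, to -0.57 at equal totals and -0.18 without replicate 1 (-0.20 to 0.23 over the samples left out), and at 4 h to -0.57 at equal totals. A further 125 settings over 44 differences changed a sign while passing 0.05 under neither, with a reported size of at most 0.62. The cause of these changes was not tested, and the rounded, scaled values do not give the reads behind Met, Pdgfrb, Egfr and untreated Flt1.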
